A study of Mus musculus with 16 samples.

Results

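The genes described here are Hmgcs1, Idi1, Fdps, Fdft1, Sqle, Lss, Cyp51 and Insig1, 7 enzymes of sterol synthesis and Insig1, which holds the SREBP escort in place when sterols are plentiful. They were taken by symbol from a matrix of 25105 genes, in which all 8 have a row. They serve as a readout of SREBP2, a transcription factor that is cut by the same proteases as ATF6, a stress sensor of the endoplasmic reticulum (ER). Expression was measured by bulk poly(A) RNA-seq in dispersed pancreatic islet cells of adult Grp78 flox/flox mice. GRP78, encoded by Hspa5, is an ER chaperone. All 16 cultures carried the floxed allele, received an adenovirus and were kept for 72 h in 15 mM glucose. The 4 groups of 4 libraries were Ad-LacZ with DMSO (control virus), Ad-Cre with DMSO (Cre recombinase, the knockdown), and the same 2 viruses with JNK-IN-8, a pan-JNK inhibitor (written Ad-LacZ + JNK inhibitor, and likewise for Ad-Cre). Delivery by adenovirus is not limited to β cells. Each group holds 1 library from each of 4 preparations of islets (F1, M1, M2 and F2), and each label gives 2 animal numbers per preparation, whereas the study's text counts 1 mouse per preparation.

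Sterol synthesis starts from acetyl-CoA and runs through mevalonate, isoprenoid diphosphates, squalene and lanosterol to cholesterol. When ER membranes are poor in sterols, the escort protein SCAP carries SREBP2 to the Golgi, where Mbtps1 and Mbtps2 cut it and free the part that switches on the enzymes of the pathway. When sterols are plentiful, INSIG proteins hold SCAP in the ER. ATF6 travels the same way under ER stress, is cut by the same proteases and then activates chaperone genes. β cells make large amounts of secreted protein and depend on the ER for it.

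The targeted gene, Hspa5, had 478, 483, 395 and 396 RPKM, a read count scaled by exon length and library depth (preparations in the order F1, M1, M2 and F2, here and below), in the Ad-LacZ libraries. It had 1107, 1114, 1237 and 1598 RPKM in the libraries labelled Ad-Cre. The values of Hspa5 were therefore higher in each library labelled Ad-Cre, against the direction of a knockdown, and a value for the whole gene cannot tell the floxed exons from the others. With the inhibitor, Hspa5 had 348 to 461 RPKM in the Ad-LacZ libraries and 1202 to 1660 RPKM in the libraries labelled Ad-Cre. Directions below are those of the libraries labelled Ad-Cre. Depth, estimated from the steps of low values, was 7.72 M to 25.5 M mapped reads with a median of 22.0 M. The shallowest library, F2 of Ad-Cre + JNK inhibitor, is also the one library labelled lane 8 and not lane 5. The labelled islet cells had their defining markers: Ins2 had 17388 to 49417 RPKM and Gcg 10345 to 26503 RPKM, whereas the acinar genes Cpa1, Cela2a, Prss2 and Pnlip stayed at or below 0.0944 RPKM and 5 acinar markers summed to 1.80 to 10.6 RPKM. Preparation M2 of Ad-Cre + JNK inhibitor stands apart, with a summed level of 4 δ cell markers of 6834 RPKM against 1135 to 3844 RPKM in the other 15 libraries.

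RPKM is scaled by gene length, so levels can be set side by side. Sqle, which encodes squalene epoxidase, had 24.2 to 39.9 RPKM over the 16 libraries and the highest mean in 3 of the 4 groups. Insig1 had 17.5 to 50.0 RPKM and led in Ad-Cre + JNK inhibitor, with a mean of 44.3 RPKM against 32.7 RPKM for Sqle. Lss, which encodes lanosterol synthase, had the lowest mean in each group and 2.53 to 7.24 RPKM in all, next to Idi1 at 3.65 to 7.51 RPKM. The RPKM of Lss rests on a long annotated exon total of 10787 bases. Between 169 and 5270 reads lay behind each value, with the fewest for Idi1 in the shallowest library.

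**Figure D1:**
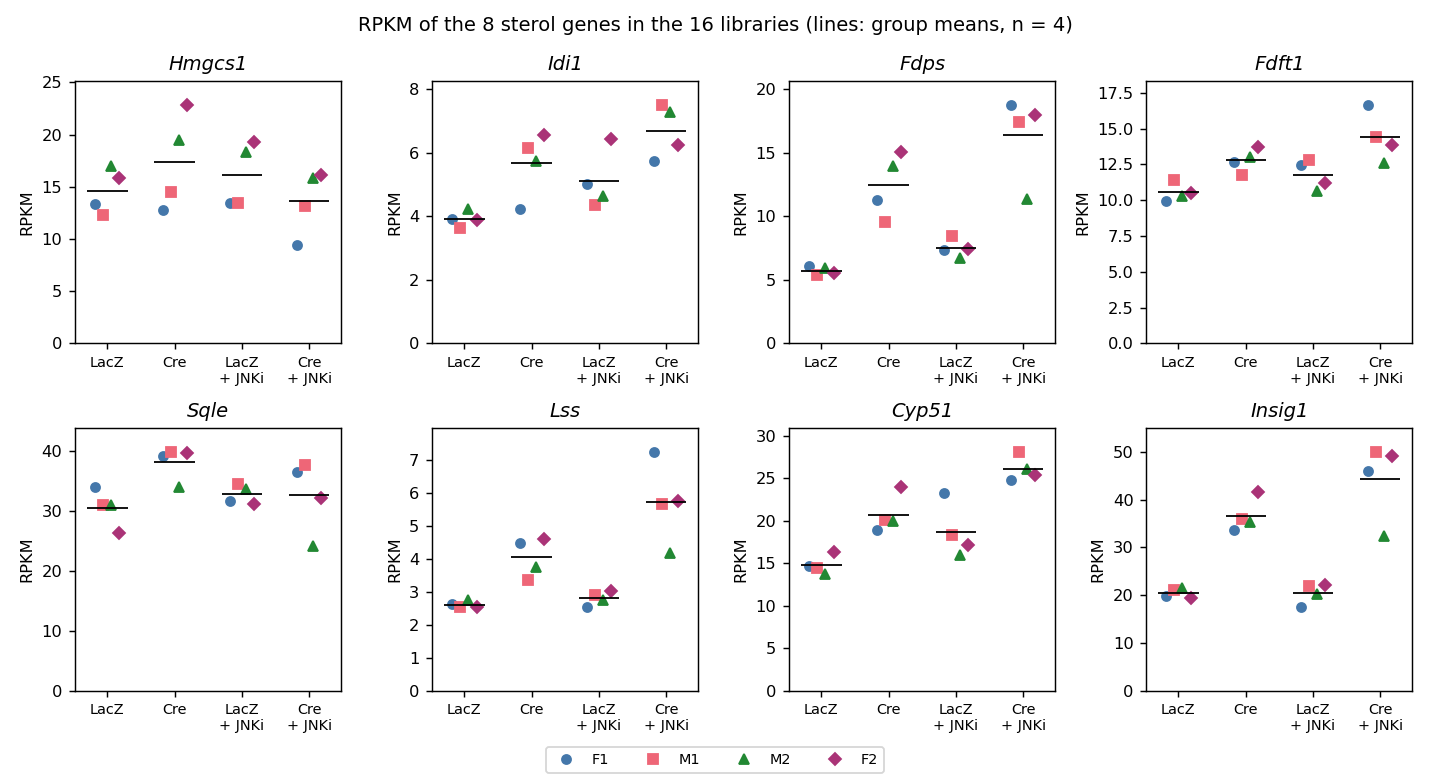
RPKM as deposited (vertical axis, starting at 0) of the 8 genes in the 4 groups, with 1 point per library, a symbol per preparation, JNKi for JNK inhibitor, and a line at the group mean (n = 4). Insig1 and Fdps in the libraries labelled Ad-Cre lie above every Ad-LacZ library with the same treatment, while Hmgcs1 separates M2 and F2 from F1 and M1.

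Promoter sequences are shown for Hmgcs1, a textbook SREBP target whose change did not pass the test below, for Lss and Insig1, which were called in both virus comparisons, and for Hspa5 as an ATF6 target. Windows of 250 bases before to 50 bases after the start were matched in RefSeq (GRCm38.p6) for 5 of 8 genes: Hmgcs1, Idi1, Lss, Cyp51 and Insig1. Letters were searched on both strands. The SREBP-like motif TCACNCCAC was found in 1 of the 5, Hmgcs1, at position -137 from the start, in 0 of 12 genes among the other enzymes, in 1 of 12 ATF6 targets (Hsp90b1) and in 1.24% of 32851 windows. The NF-Y motif CCAAT was in 5 of 5 gene windows, in 10 of 12 genes among the other enzymes and in 37.4% of all windows. The Sp1 motif GGGCGG was in 5 of 5 and in 35.7% of all windows. The E-box CACGTG was in Insig1 and in 7.15% of all windows. The ER stress element, CCAAT followed after 9 bases by CCACG and so always overlapping a CCAAT, was in 0 of 5, in 7 of 12 ATF6 targets with a window and in 0.119% of all windows. The stretches below lie upstream of the first annotated start, on the plus strand, with GGGCGG left in lower case and capitals marking TCACNCCAC, CCAAT or CACGTG on either strand; that of Hspa5 is its ER stress element alone.
Hmgcs1 (chr13:119690101-119690350): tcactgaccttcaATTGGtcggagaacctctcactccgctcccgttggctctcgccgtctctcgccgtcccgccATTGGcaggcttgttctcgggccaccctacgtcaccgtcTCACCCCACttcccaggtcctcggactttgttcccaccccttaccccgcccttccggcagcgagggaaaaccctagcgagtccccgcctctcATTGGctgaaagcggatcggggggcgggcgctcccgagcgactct
Lss (chr10:76531355-76531587): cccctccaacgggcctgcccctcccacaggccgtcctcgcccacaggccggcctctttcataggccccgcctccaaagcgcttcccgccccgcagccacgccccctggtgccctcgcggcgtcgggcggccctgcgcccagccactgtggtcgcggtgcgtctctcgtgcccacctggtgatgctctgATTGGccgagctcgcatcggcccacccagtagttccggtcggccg
Insig1 (chr5:28071162-28071362): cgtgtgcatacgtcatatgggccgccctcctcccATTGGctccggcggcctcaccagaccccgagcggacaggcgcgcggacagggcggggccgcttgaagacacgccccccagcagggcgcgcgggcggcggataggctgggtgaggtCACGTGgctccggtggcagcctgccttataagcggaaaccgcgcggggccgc
Hspa5 (chr2:34772025-34772043): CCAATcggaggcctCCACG
Hmgcs1 shows 1 SREBP-like motif between CCAAT motifs read on the other strand (ATTGG), Lss shows a single CCAAT near its start, and Insig1 shows a CCAAT and an E-box. A match of letters is a description and not a bound site.

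The first comparison asks which genes of the pathway differ between Ad-Cre and Ad-LacZ without inhibitor. All 8 genes had a higher mean in the libraries labelled Ad-Cre and, after TMM scaling (scaling by the trimmed mean of M-values), a higher value in each of the 4 preparations. As deposited, Hmgcs1 was lower in preparation F1. Of the 8, 5 were called higher, meaning a Benjamini-Hochberg adjusted p under 0.05 from limma over 11590 genes. These were Fdps, Insig1, Lss, Cyp51 and Idi1. Of all genes tested, 7.14% were called higher by the same rule. In the RPKM as deposited, 7 of 8 genes did not overlap between the groups, the exception being Hmgcs1, against 11.8% of all genes in that direction. After TMM scaling Fdft1 and Sqle overlapped as well, which left the 5 called genes. The median log2 fold change was 0.44 over the 8 genes and 0.00 over all genes.

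Fdps encodes farnesyl diphosphate synthase, which makes a precursor shared by sterols, dolichol and prenylated proteins (chr3:89093588-89101959, GRCm38, protein-coding, ENSMUSG00000059743). It had 6.07, 5.38, 5.90 and 5.57 RPKM in Ad-LacZ and 11.3, 9.54, 14.0 and 15.0 RPKM in Ad-Cre. Each library labelled Ad-Cre was above each Ad-LacZ library. The group means were 5.73 ± 0.312 and 12.5 ± 2.50 RPKM (SD, n = 4), a 2.17-fold difference. The log2 fold change on the log2(scaled RPKM + 1) scale was 0.98 (standard error, SE, 0.11; adjusted p = 0.00164 by limma), which understates the change of low genes. Fdps shares 26.7% of its annotated exon bases with the overlapping gene model Gm43738 on the same strand, so its reads cannot be fully told apart from that model's.

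Insig1 retains SCAP in the ER and is itself induced by SREBP2 (chr5:28071363-28078662, ENSMUSG00000045294). Its values were 19.7, 21.1, 21.5 and 19.3 RPKM in Ad-LacZ and 33.5, 36.0, 35.2 and 41.6 RPKM in Ad-Cre. The gap between the groups, 12.0 RPKM, was larger than the spread within either. Insig1 rose by a log2 fold change of 0.81 (SE 0.11, adjusted p = 0.00336 by limma), with 0.64 to 0.99 in the single preparations.

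Lss closes the sterol rings (chr10:76531588-76557138, ENSMUSG00000033105). It had 2.62, 2.54, 2.76 and 2.53 RPKM in Ad-LacZ and 4.48, 3.36, 3.75 and 4.60 RPKM in Ad-Cre, a log2 fold change of 0.48 (SE 0.12, adjusted p = 0.0271 by limma). Cyp51, the lanosterol demethylase and the next step of the pathway (chr5:4081145-4104746, ENSMUSG00000001467), had 14.6, 14.4, 13.8 and 16.4 RPKM in Ad-LacZ. In Ad-Cre it had 19.0, 20.1, 19.9 and 24.0 RPKM, a log2 fold change of 0.46 (SE 0.12, adjusted p = 0.0317 by limma). For both genes the groups did not overlap, and the 4 preparations of Cyp51 gave nearly the same log2 ratio, 0.43 to 0.49. Idi1, the isomerase that makes a building block of isoprenoids (chr13:8885501-8892451, ENSMUSG00000058258), had 3.93, 3.65, 4.23 and 3.90 RPKM in Ad-LacZ. In Ad-Cre it had 4.24, 6.16, 5.74 and 6.55 RPKM, a log2 fold change of 0.42 (SE 0.11, adjusted p = 0.0323 by limma). Preparation F1 of Idi1 lay only just above the Ad-LacZ range.

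The 3 enzymes not called were Fdft1, Sqle and Hmgcs1. Fdft1, squalene synthase, commits farnesyl diphosphate to sterols (chr14:63145150-63179578, ENSMUSG00000021273). It had 9.95, 11.4, 10.3 and 10.5 RPKM in Ad-LacZ and 12.7, 11.8, 13.0 and 13.7 RPKM in Ad-Cre (log2 fold change 0.26, 95% interval 0.02 to 0.49, adjusted p = 0.123 by limma). Its exons share 18.3% of their bases with Ctsb on the opposite strand. Ctsb, a lysosomal protease, was the more abundant gene, at 101 ± 5.07 RPKM in Ad-LacZ and 127 ± 16.9 RPKM in Ad-Cre (SD, n = 4). Whether counting used strand is not given in the sources used here, so reads of the 2 genes may mix. Sqle (chr15:59315077-59331192, ENSMUSG00000022351) had 34.0, 30.9, 30.9 and 26.4 RPKM in Ad-LacZ and 39.2, 39.9, 34.1 and 39.7 RPKM in Ad-Cre. Its values did not overlap as deposited, though only narrowly. Its log2 fold change was 0.32 (95% interval -0.03 to 0.66, adjusted p = 0.183 by limma).

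Hmgcs1 makes HMG-CoA at the entry to the pathway (chr13:119690379-119708260, ENSMUSG00000093930). It had 13.4, 12.3, 17.0 and 15.9 RPKM in Ad-LacZ and 12.8, 14.5, 19.5 and 22.8 RPKM in Ad-Cre. The groups overlapped, since M2 and F2 were above F1 and M1 in both. Its log2 fold change was 0.21 (95% interval -0.10 to 0.52, adjusted p = 0.316 by limma).

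Other annotated genes share 12.1% of the exon bases of Hmgcs1 (Gm48342), 9.22% of Idi1 (Gm48574), 3.76% of Cyp51 (Akap9) and 3.53% of Lss (4930483K19Rik). The last, on the antisense strand, was itself called higher, with a log2 fold change of 0.45 (adjusted p = 0.0473 by limma), and reads of these pairs may mix as well.

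The exact two-sided permutation test of 4 against 4 libraries, whose smallest p is 0.0286, reached that value for Fdps, Insig1, Lss, Cyp51 and Idi1. It shuffles libraries without regard to the preparation. A gene whose scaled values do not overlap between the groups always reaches the smallest p, so the test adds nothing to that lack of overlap. With the preparation as a block, 6 of 8 genes were called, against 15.8% of all genes, the addition being Sqle (adjusted p = 0.0449 by limma). On the log2(scaled RPKM + 1) scale, Fdps and Insig1 had an unadjusted p under 0.05 with a fold change above 1.5, against 5.09% of all genes. Lss, 1.55-fold higher between means, passed both with a pseudocount of 0.1, where its log2 fold change was 0.60. Leaving out F1, M1 or F2 left 2, 2 and 1 (Fdps) of the 8 called, and without M2 the count was 4. Of all genes, 277 of 11390, 211 of 11402, 98 of 11154 and 451 of 11102 were then called higher, in that order. Markers of cell types moved beside these values. The summed level of 8 macrophage markers was 55.3 to 62.2 RPKM in Ad-LacZ and 66.2 to 130 RPKM in Ad-Cre. Of the 8, 4 were called higher, against 7.14% of all genes (7 with the block, against 15.8%). The summed level of 9 β cell markers was 51906 to 84724 RPKM in Ad-LacZ and 33474 to 84383 RPKM in Ad-Cre. Of the 9, 2 were called lower, against 9.40% of all genes (6 with the block, against 18.1%). Most of the sum is Ins1 and Ins2, with Ad-LacZ means of 27794 and 35446 RPKM, so it says little about the others. All 9 had a negative log2 fold change, with a median of -0.80. As deposited, 4 of 9 did not overlap (Mafa, Slc2a2, Ucn3 and G6pc2), against 15.9% of all genes in that direction. The summed level of 7 fibroblast and stellate cell markers was 23.6 to 108 RPKM and 21.8 to 683 RPKM in the same order. With the block, 1 of its 4 tested genes and 1 acinar marker were called higher, against 15.8% of all genes. Their part in the differences of the sterol genes was not tested, and in bulk RNA fewer cells of a type and less RNA per cell cannot be told apart.

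Of 12 other enzymes of sterol synthesis given here, 3 were called higher (Mvd, Ebp and Acat2), against 7.14% of all genes. None was called lower, against 9.40% of all genes. With the block 5 were called higher, against 15.8% of all genes, the additions being Hsd17b7 (log2 fold change 0.52, adjusted p = 0.00936 by limma) and Tm7sf2 (0.37, adjusted p = 0.0338 by limma). Mvd, the decarboxylase just upstream of Idi1, had 3.44, 2.91, 4.00 and 3.29 RPKM in Ad-LacZ and 11.1, 10.9, 17.1 and 21.4 RPKM in Ad-Cre. Its groups were far apart, with a log2 fold change of 1.82 (SE 0.16, adjusted p = 0.000832 by limma), above each of the 8 genes. Ebp, a sterol isomerase late in the pathway, had a log2 fold change of 0.83 (SE 0.16, adjusted p = 0.0114 by limma). Acat2, the thiolase that feeds Hmgcs1, gave 0.48 on the same scale (SE 0.13, adjusted p = 0.0384 by limma). The median of the 12 was 0.23.

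Among SREBP2 targets outside synthesis, Tmem97, a sterol-responsive ER protein, was called higher (log2 fold change 0.76, SE 0.23, adjusted p = 0.0487 by limma). Stard4, a cytosolic sterol carrier, gave 0.46 and did not pass without the block (adjusted p = 0.108 by limma), though it did with it (adjusted p = 0.0220 by limma).

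None of the 10 genes of the SREBP processing machinery was called without the block. With it 1 was called higher, against 15.8% of all genes: Ufd1, a partner in ER-associated degradation (log2 fold change 0.30, adjusted p = 0.0368 by limma). Srebf2, which encodes SREBP2 itself, was 17.6 ± 3.51 RPKM in Ad-LacZ and 18.9 ± 1.32 RPKM in Ad-Cre (SD, n = 4), with a log2 fold change of 0.12 and a 95% interval from -0.29 to 0.54. Scap gave 0.06, Mbtps1 -0.03, Mbtps2 -0.32 and Insig2 -0.08 on the same scale. These are transcript levels and say nothing about cleavage. Of 12 tested genes of fatty acid synthesis, Fasn was called higher (log2 fold change 0.63) and Me1 lower (-0.41), against 7.14% and 9.40% of all genes. With the block, Acsl3 (0.45) and Scd1 (0.50) were called higher as well, against 15.8% of all genes. Of 8 LXR targets and sterol efflux genes, Smpdl3a was called lower (-0.77), against 9.40% of all genes, and with the block 1 other gene was called higher.

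ATF6 targets are given beside them because of the shared proteases. All 14 were called higher in the libraries labelled Ad-Cre, with a median log2 fold change of 1.74, against 0.44 for the 8 sterol genes and 0.23 for the 12 other enzymes. The smallest change among the ATF6 targets, 1.33 for Manf and Dnajb11, exceeded that of Fdps, whereas Mvd lay within their range. Atf6 itself had a log2 fold change of -0.17 (adjusted p = 0.444 by limma). The lists were not tested against each other.

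**Figure D2:**
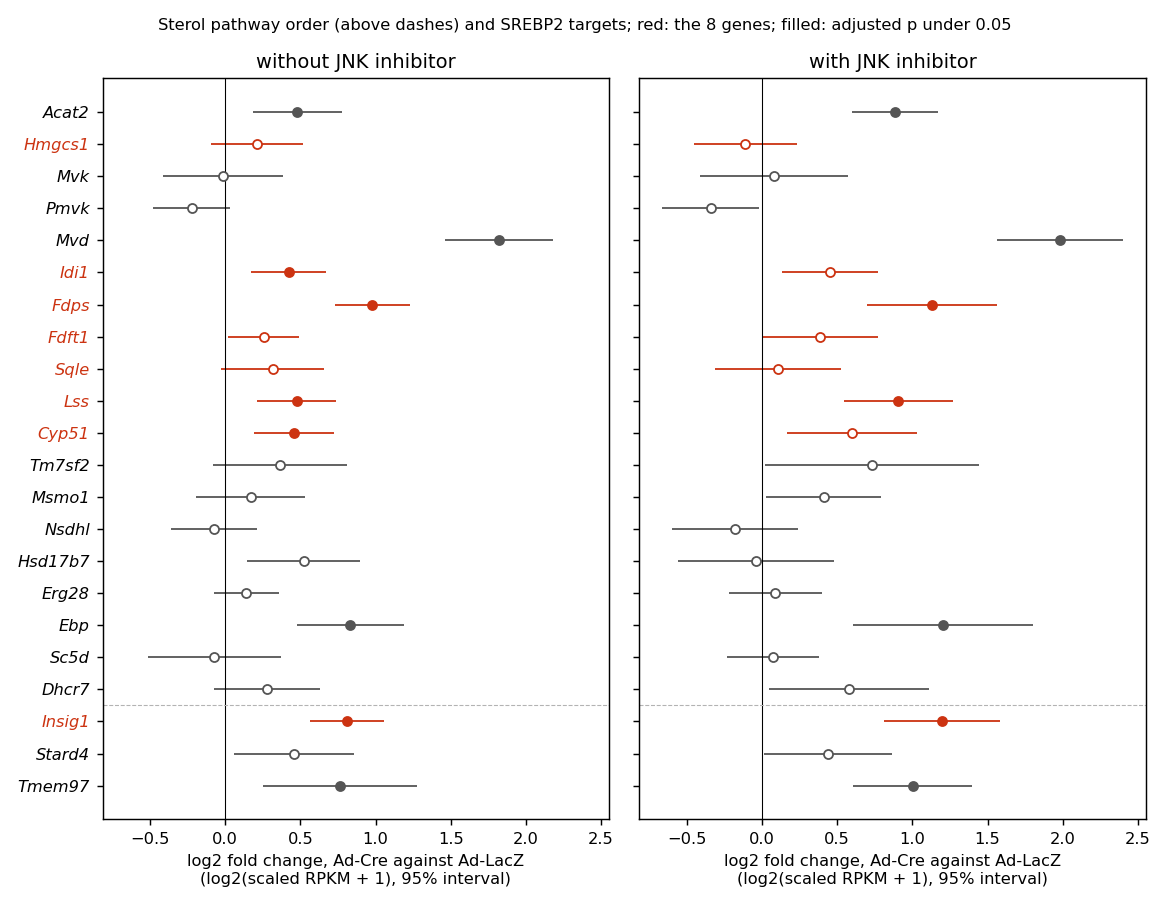
Log2 fold change of Ad-Cre against Ad-LacZ (horizontal axis, log2(scaled RPKM + 1), bars: 95% intervals, 4 against 4 libraries) for the enzymes in pathway order and, under the dashed line, Insig1 and other SREBP2 targets. Red marks the 8 genes and filled points an adjusted p under 0.05; Mvd lies farthest to the right in both panels, and Fdps and Insig1 are the members farthest right.

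The second comparison asks the same with the JNK inhibitor in both groups. The leading genes were again Insig1, Fdps and Lss, and these 3 of 8 were called higher, against 10.1% of 11598 genes. In the RPKM as deposited, 4 of 8 genes did not overlap (Fdps, Lss, Cyp51 and Insig1), against 8.93% of all genes. After TMM scaling Cyp51 overlapped and Idi1 did not. The median log2 fold change of the 8 genes was 0.53, beside -0.03 for all genes. Without TMM scaling, the medians of all genes shift to -0.14 in this comparison, -0.14 for the inhibitor in Ad-Cre and -0.12 for the interaction, and the median of the 8 genes here becomes 0.41. Of all genes, 1176 of the 2393 called were higher with that scaling and 950 of 3056 without it.

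Insig1 had 17.5, 21.8, 20.2 and 22.1 RPKM in Ad-LacZ + JNK inhibitor and 46.0, 50.0, 32.3 and 49.1 RPKM in Ad-Cre + JNK inhibitor. The groups were apart, and the lowest of the high group was M2, the library that stands apart by its δ cell markers. The log2 fold change was 1.198 (SE 0.17, adjusted p = 0.00237 by limma). Fdps had 7.33, 8.49, 6.75 and 7.45 RPKM in Ad-LacZ + JNK inhibitor and 18.8, 17.4, 11.3 and 18.0 RPKM in Ad-Cre + JNK inhibitor, again with M2 lowest. It rose by 1.13 on the log2 scale (SE 0.19, adjusted p = 0.00491 by limma). Lss had 2.55, 2.89, 2.76 and 3.03 RPKM and 7.24, 5.68, 4.17 and 5.76 RPKM in the same order of groups. The difference in Lss was 2.04-fold between means, or 0.91 on the log2 scale (SE 0.16, adjusted p = 0.00571 by limma).

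Cyp51 and Idi1 missed the threshold narrowly. Cyp51 had 23.3, 18.4, 16.0 and 17.2 RPKM in Ad-LacZ + JNK inhibitor and 24.9, 28.1, 26.1 and 25.4 RPKM in Ad-Cre + JNK inhibitor (log2 fold change 0.60, adjusted p = 0.0559 by limma). Preparation F1 was already high in its Ad-LacZ library, so its log2 ratio was 0.08 against 0.68 to 0.92 in the others. Idi1 had 5.02, 4.35, 4.63 and 6.43 RPKM against 5.75, 7.51, 7.30 and 6.24 RPKM (log2 fold change 0.45, adjusted p = 0.0514 by limma). Fdft1 gave 0.39 (adjusted p = 0.136 by limma), on values of 12.5, 12.8, 10.6 and 11.2 RPKM against 16.6, 14.4, 12.6 and 13.8 RPKM. With the preparation as a block, 5 of 8 were called, against 12.7% of all genes, the additions being Fdft1 (adjusted p = 0.0401 by limma) and Cyp51 (adjusted p = 0.0405 by limma).

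Sqle and Hmgcs1 were not called. Sqle had 31.7, 34.5, 33.7 and 31.2 RPKM in Ad-LacZ + JNK inhibitor and 36.6, 37.7, 24.2 and 32.2 RPKM in Ad-Cre + JNK inhibitor. Preparation M2 of Ad-Cre + JNK inhibitor was the lowest of all 16 libraries, and the log2 fold change was 0.11 (95% interval -0.31 to 0.53), turning to -0.023 without TMM scaling and to -0.052 with quantile normalization. Hmgcs1 had 13.5, 13.4, 18.4 and 19.3 RPKM against 9.43, 13.2, 15.9 and 16.1 RPKM. As deposited, Hmgcs1 was lower in all 4 preparations, with a log2 fold change of -0.24. With TMM scaling its log2 fold change was -0.11 (95% interval -0.45 to 0.23), positive in 2 of 4 preparations.

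Without F2, which holds the shallowest library, only Insig1 was still called (1 of 8). Without M2 the count was 3, without M1 it was 2 and without F1 it was 4. Of all genes, 166 of 10991 were called higher without F2 and 1635 of 10982 without M2. Without M1 they were 222 of 11327, and without F1 687 of 11361. An unadjusted p under 0.05 with a fold change above 1.5 gave 4 of 8, against 9.75% of all genes. The summed macrophage markers overlapped here, at 91.2 to 130 RPKM and 95.9 to 126 RPKM, and none of the 8 was called. Of the other cell types, 4 of 9 β cell markers were called lower (6 lower and 1 higher with the block), as was 1 duct marker. Of 2 PP cell markers, 1 was called higher (2 with the block). Of all genes, 10.1% were called higher and 10.5% lower, or 12.7% and 12.1% with the block. The summed fibroblast and stellate cell markers were 43.8 to 512 RPKM in Ad-LacZ + JNK inhibitor and 26.3 to 148 RPKM in Ad-Cre + JNK inhibitor. Over their 6 tested genes the median log2 fold change was -1.20, and 0 were called without the block and 4 lower with it, against 12.1% of all genes. With the block, 2 of 5 α cell markers, 2 of 4 δ cell markers and 1 acinar marker were called higher, against 12.7% of all genes. The part of these cells in the differences of the sterol genes was not tested.

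Among the other enzymes with inhibitor, Mvd (log2 fold change 1.98), Ebp (1.203) and Acat2 (0.89) were called higher, against 10.1% of all genes. With the block 5 of 12 were called higher, Msmo1 (0.41) among the additions, against 12.7% of all genes. None of the 12 was called lower, against 10.5% of all genes, and their median was 0.25. Abca1, the cholesterol exporter, fell by 0.93 on the log2 scale (adjusted p = 0.00283 by limma), and Smpdl3a likewise fell by 0.93 (adjusted p = 0.00673 by limma), and with the block Lpcat3 was the third LXR target called lower (-0.38). Tmem97 was called higher (log2 fold change 1.00), and Stard4 (0.44) with the block alone (adjusted p = 0.0387 by limma). In the processing machinery 1 of 10 genes was called higher, Ufd1, with 0.61, against 10.1% of all genes. All 14 ATF6 targets were called higher, with a median of 2.14.

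**Figure D3:**
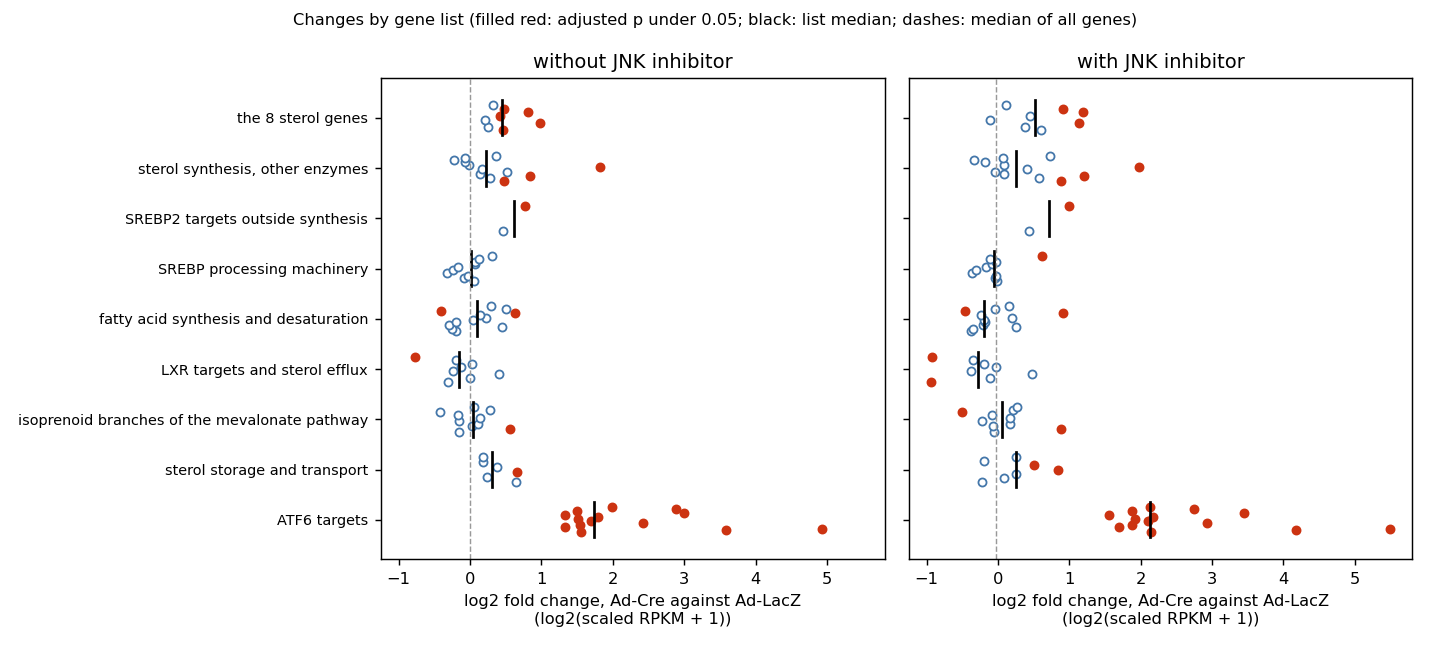
Log2 fold change of Ad-Cre against Ad-LacZ (horizontal axis, log2(scaled RPKM + 1)) for each tested gene of 9 lists, without and with JNK inhibitor. Filled red points passed an adjusted p under 0.05, black bars are list medians and the dashed line is the median of all genes; every ATF6 target lies to the right of 1, while of the other genes Mvd lies farthest right, at 1.82 and 1.98.

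The last pair of comparisons asks what the JNK inhibitor did within each virus. They reuse the groups above. The summed macrophage markers were 55.3 to 62.2 RPKM in Ad-LacZ and 91.2 to 130 RPKM in Ad-LacZ + JNK inhibitor. Of the 8, 2 were called higher, against 0.146% of all genes (1 with the block, against 0.249%). The summed level of 5 duct cell markers was 136 to 274 RPKM and 376 to 909 RPKM in the same order, without overlap. Most of that sum is Spp1, at 93.0 to 221 RPKM and 332 to 813 RPKM. Krt7 overlapped, at 38.5 to 51.0 RPKM and 42.8 to 62.6 RPKM, and Sox9 and Cftr had means under 1 RPKM. Krt19 had means of 0.816 and 9.42 RPKM, the second with an SD of 15.8 RPKM. The summed fibroblast and stellate cell markers were 23.6 to 108 RPKM and 43.8 to 512 RPKM, with a median log2 fold change of 1.82 over 4 tested genes. Of either list 0 genes were called without the block and 1 was called higher with it, and the part of these cells in what follows was not tested. In the Ad-LacZ libraries 0 of 8 sterol genes was called by limma with or without the block, where 0.197% of all genes was called in either direction. At an unadjusted p under 0.05, Idi1 and Fdps passed, and both also had a fold change above 1.2, the criteria that 2.69% of all genes met in that direction. Fdps went from 5.73 ± 0.312 to 7.50 ± 0.722 RPKM (SD, n = 4), without overlap as deposited (log2 fold change 0.33, adjusted p = 0.676 by limma). Idi1 went from 3.93 ± 0.237 to 5.11 ± 0.923 RPKM (SD, n = 4; log2 fold change 0.30, adjusted p = 0.685 by limma). Insig1 had the same mean, 20.4 RPKM, in both groups (log2 fold change -0.01, 95% interval -0.23 to 0.21).

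In the libraries labelled Ad-Cre, limma without the block called 0 of 8 genes, where 0.0174% of all genes was called in either direction. Once scaled, 6 of 8 (Idi1, Fdps, Fdft1, Lss, Cyp51 and Insig1) had a higher value with inhibitor in each preparation. Fdps was all but level in M2, where its positive log2 ratio rounds to 0.00. Scaled over all 16 libraries, Fdps in M2 was slightly lower with inhibitor, at 3.65 against 3.70 on the log2 scale. As deposited, Fdps, Fdft1 and Insig1 were lower with inhibitor in M2 and Idi1 in F2, which left Lss and Cyp51 higher in all 4. An alternative rule was met by 4 of 8 genes, which passed an unadjusted p under 0.05 with a fold change above 1.2 (Idi1, Fdps, Lss and Cyp51), against 5.49% of all genes. Cyp51 was the one gene without overlap, at 19.0 to 24.0 RPKM in Ad-Cre and 24.9 to 28.1 RPKM in Ad-Cre + JNK inhibitor. With the preparation as a block, 3 of 8 were called higher, against 4.66% of all genes. These were Lss (log2 fold change 0.53, adjusted p = 0.0298 by limma, without the block 0.472), Cyp51 (0.48, adjusted p = 0.0359 by limma, without the block 0.363) and Insig1 (0.41, adjusted p = 0.0475 by limma, without the block 0.629). Of the 12 other enzymes, 4 were called higher with the block (Acat2, Ebp, Msmo1 and Sc5d) and 0 without it, and of the 14 ATF6 targets 5 and 0. The summed δ cell markers were 1135 to 2552 RPKM in Ad-Cre and 2467 to 6834 RPKM in Ad-Cre + JNK inhibitor, with 1 δ, 1 α and 1 endothelial marker called higher with the block, and their part was not tested.

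**Figure D4:**
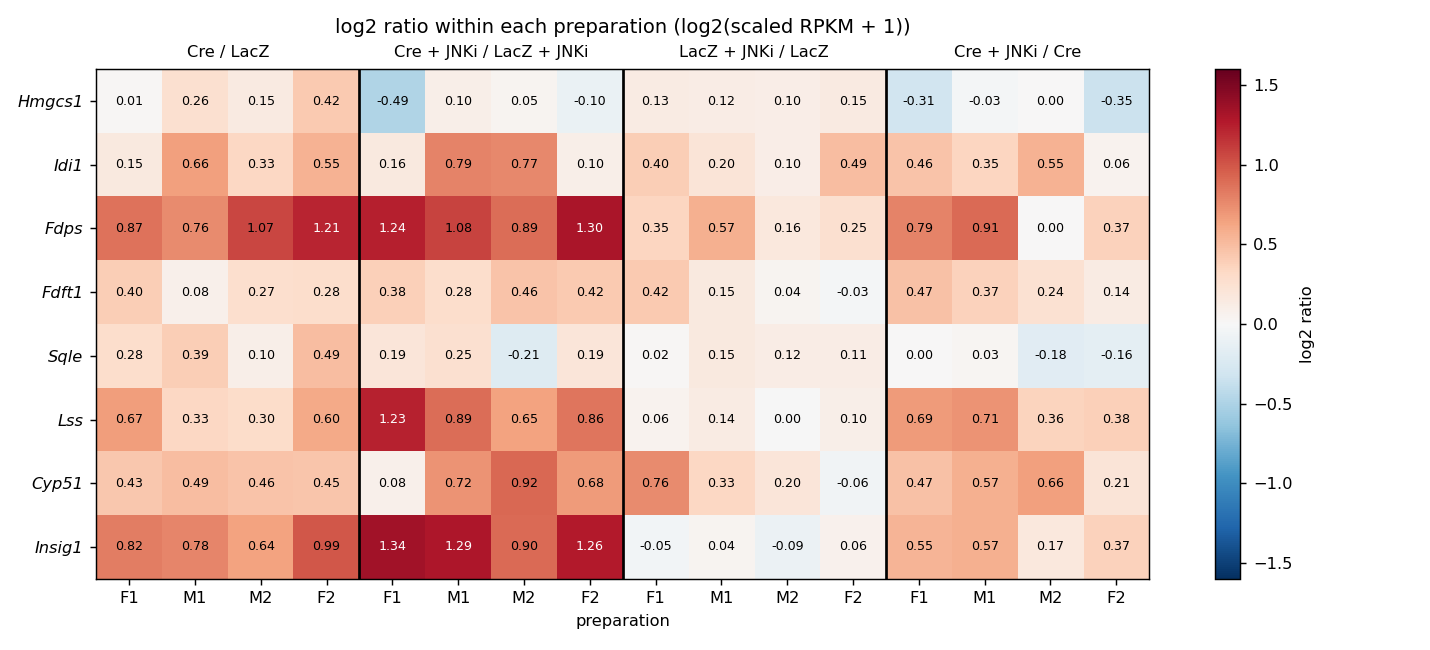
Log2 ratio (colour and printed value, log2(scaled RPKM + 1)) of each gene in each preparation for the 4 comparisons, separated by black lines. In the first block all 32 values are above 0, and in the last block 6 genes are at or above 0 in every preparation, Fdps in M2 at 0.00, while Hmgcs1 and Sqle are near or below it.

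The test of whether the virus difference itself changed with the inhibitor called 0 of 8 genes and 0.00% of 12274 genes. At an unadjusted p under 0.05, 384 genes passed, among them Lss, whose interaction was 0.45 on the log2 scale (95% interval 0.01 to 0.89, adjusted p = 0.999 by limma). Insig1 gave 0.40 (95% interval -0.04 to 0.84) and Hmgcs1 -0.32 (95% interval -0.74 to 0.10). The counts of 5 without and 3 with inhibitor are thus not shown to differ.

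After TMM scaling, the 8 genes fell into those that followed the groups and those that followed the preparations. On the log2 scale over 16 libraries, groups held 89.8% of the sum of squares of Insig1, 88.1% of Fdps, 82.5% of Lss, 77.9% of Idi1, 73.4% of Cyp51 and 57.2% of Fdft1. For Sqle the groups held 22.1% and the preparations 62.9%, and for Hmgcs1 the groups held 19.6% and the preparations 53.5%. These shares rest on the scaled values, and the TMM factors themselves differed between preparations. Shares for the values as deposited were not computed. As deposited, the preparations overlapped for Sqle, at 30.9 to 39.9 RPKM in F1 and M1 and 24.2 to 39.7 RPKM in M2 and F2. Hmgcs1 was at 9.43 to 14.5 RPKM in all 8 libraries of F1 and M1 and at 15.9 to 22.8 RPKM in all 8 of M2 and F2, a split noticed after its values were seen. After TMM scaling these ranges overlapped, with up to 15.4 in F1 and M1 and down to 15.0 in M2 and F2. The same preparations differed in cell markers, with summed fibroblast and stellate cell markers of 21.8 to 105 RPKM in F1 and M1 and 55.1 to 683 RPKM in M2 and F2, ranges that overlap, and the part of these cells was not tested.

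Across the 16 libraries the order of the group means was Ad-LacZ, Ad-LacZ + JNK inhibitor, Ad-Cre and Ad-Cre + JNK inhibitor, from low to high, for Idi1, Fdps, Fdft1, Lss and Cyp51. As deposited, Idi1 and Fdps were free of overlap between the 2 Ad-LacZ groups, and Cyp51 between the 2 Ad-Cre groups. After TMM scaling Idi1 and Fdps overlapped there, and Cyp51 did not. The step from Ad-LacZ + JNK inhibitor to Ad-Cre was free of overlap for Fdps and Lss and not for Idi1, Fdft1 and Cyp51. For Insig1 the 2 Ad-LacZ groups were level and overlapped, and a gap of 12.0 RPKM separated Ad-LacZ from Ad-Cre. Hmgcs1 and Sqle were highest in Ad-Cre, and neighbouring groups overlapped throughout. As deposited, Hmgcs1 was lowest in Ad-Cre + JNK inhibitor, whereas after TMM scaling its lowest mean was that of Ad-LacZ.

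As a description of likeness, Pearson's r between log2 values over the 16 libraries was 0.70 to 0.95 for the 15 pairs among Idi1, Fdps, Fdft1, Lss, Cyp51 and Insig1, with the highest values for Fdps with Insig1 and Fdps with Lss. The 7 pairs with Hmgcs1 gave -0.38 to 0.18. These points share libraries, preparations and treatment groups. With the group means removed, the same 15 pairs gave -0.08 to 0.82, so part of the likeness is the difference between groups. Among 12266 other genes, the 10 most like the mean standardized level of the 8 were Lmf1, Ppib, Selenok, Ier3ip1, Tmed6, Eif4b, Arpc5l, Sec11a, Hypk and Pdia6, with r of 0.95 to 0.96. With the group means removed they gave 0.75 to 0.90, and with the preparation means removed 0.94 to 0.96. In the latter ranking only 2 of them, Eif4b and Ppib, stayed among the 10 most alike, and the others ranked 12 to 42. Over the 16 libraries r was still 0.91 at rank 120 (Hspa5), so these 10 are not set apart from the genes ranked below. Of the 10 genes, Ppib, Sec11a and Pdia6 encode an ER prolyl isomerase, a signal peptidase subunit and a protein disulfide isomerase. Lmf1 encodes an ER protein of lipase maturation. Mvd had r = 0.88 over the 16 libraries.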

How the data were processed

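Poly(A) libraries of 16 islet cultures were sequenced as paired-end reads. The authors aligned them to the mouse genome for raw counts (GRCm38 per the submitters' processing notes) and deposited RPKM. The annotation, gene lengths, strand setting and handling of multiply mapped reads are not given in the sources used here. Another 3 value columns that no label names were not used. Depth was read from whole-read steps of low RPKM values with GENCODE vM21 exon lengths (92.4% to 93.7% of low values were whole within 0.02).

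Genes above 1 RPKM in at least 4 libraries were kept, scaled by unweighted TMM factors (trim 30% of ratios and 5% of levels) and fitted as log2(RPKM + 1) with limma 3.58.1 (eBayes with trend) in R 4.3.3, using only the 8 libraries of a comparison, or 16 for the interaction, without a block. The fold-change criteria of 1.5 for virus and 1.2 for inhibitor are those of the study. The labels give each preparation the same animals in every group, so the preparation is a true pairing. Residuals of same-numbered libraries correlated at 0.131 to 0.826 (mean of other pairs -0.230 to -0.129). Residuals from group means make other pairs negative wherever same-numbered pairs are positive, so the contrast of the 2 adds little. Blocked calls are printed beside the others for the 8 genes and, as counts, for the lists described. Alternatives changed the pseudocount (0.1), the filter (none, or 0.1 RPKM), the scaling (none, or quantile), the libraries fitted together (16), the block and the eBayes trend, or left out 1 preparation. Named genes are the members, list members as such, the 10 most alike genes and Hspa5. Cell marker genes were named as checks and genes overlapping the members after the annotation was seen. P-values without the block rest on the spread between the 4 libraries within each group. Those with the block rest on how much the differences within preparations varied. Members, lists and tests were chosen with earlier results of these data known. Some genes of the lists are not reported here, and counts and medians are over the others. The procedure was tested on simulated data. Sequences are from RefSeq.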

Additional observations from a re-analysis of the deposited data

Results flagged for a closer look

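In 1 of 32 groups of 4 libraries, 8 genes in 4 groups, 1 library lay far from the other 3 by Dixon's criterion, which flags about 1 in 20 groups by chance. Sqle in Ad-Cre was 34.1 RPKM in preparation M2 and 39.2 to 39.9 RPKM in the others. The same preparation held the lowest Sqle value with inhibitor, 24.2 RPKM.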

How the results depend on the processing

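Each result was recomputed under 12 alternatives (11 for the interaction). The number of the 8 genes called for Ad-Cre against Ad-LacZ was 5, fell to 3 with no filter (19984 genes tested) and ranged from 1 to 4 when a preparation was left out. With the inhibitor it was 3, became 6 with all 16 libraries in one fit and 5 with the replicate block, and ranged from 1 to 4 without a preparation. For the inhibitor in Ad-Cre the count went from 0 to 3 with the block. The pairing changed no other count of the 8 genes by over 1.5 times, and the inhibitor in Ad-LacZ and the interaction kept a count of 0 under each alternative run. Signs turned for 4 small changes. Sqle with inhibitor went to -0.023 as deposited and -0.052 with quantile normalization. Hmgcs1 with inhibitor ranged from -0.18 to 0.014 without a preparation, positive without F1. Insig1 for the inhibitor in Ad-LacZ was 0.0069 in one fit and -0.025 to 0.031 without a preparation, positive without F1 or M2. The interaction of Idi1 was -0.086 as deposited and -0.086 to 0.20 without a preparation, negative without M2. The causes were not tested. Over all genes, leaving out a preparation moved the 1917 calls of the first comparison to 165 to 902 and the 2393 of the second to 323 to 3234. The block moved the first to 3936. The 23 calls for the inhibitor in Ad-LacZ became 6 with no filter, 12 with a filter at 0.1 RPKM, 7 as deposited, 11 in one fit, 39 with the block and 1 to 3 without a preparation. The 2 calls for the inhibitor in Ad-Cre became 57 in one fit, 778 with the block, 3 with a pseudocount of 0.1 and 0 otherwise, and the 0 of the interaction became 1 with quantile normalization. The 4 libraries a group limit precision, as the values without a preparation show.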

Other observations

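Isoprenoid branches and sterol transport were described in no comparison above. Among 10 tested genes of the isoprenoid branches, Dhdds, a subunit of the enzyme that makes dolichol for N-glycosylation, was called higher without inhibitor (log2 fold change 0.56, SE 0.15, adjusted p = 0.0377 by limma) and with it (0.89, SE 0.20, adjusted p = 0.0145 by limma). Its partner Nus1 had 0.14 and 0.17 and was not called. Of all genes, 7.14% were called higher without inhibitor. With it 10.1% were called higher and 10.5% lower. Pggt1b, the catalytic subunit that attaches geranylgeranyl groups to CAAX proteins, had -0.42 without inhibitor (adjusted p = 0.0543 by limma, 0.0299 with the preparation as a block) and was called lower with it, with a log2 fold change of -0.51 (adjusted p = 0.0237 by limma).

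Among genes of sterol storage and transport, Npc2, the lysosomal cholesterol carrier, was called higher without inhibitor (log2 fold change 0.66, adjusted p = 0.0390 by limma) and with it (0.84, adjusted p = 0.00728 by limma). Osbp, an ER to Golgi sterol carrier, was called higher with inhibitor (0.51, adjusted p = 0.0398 by limma). Without inhibitor Osbp (0.37, adjusted p = 0.0935 by limma) and Lipa (0.64, adjusted p = 0.0786 by limma) were called only with the preparation as a block (adjusted p = 0.0218 and 0.0362 by limma), which made 3 of 6 tested genes. Of all genes, 15.8% were called higher with that block. Lipa, the lysosomal acid lipase, was the 1 gene of its list called for the inhibitor in Ad-LacZ (log2 fold change 0.77, adjusted p = 0.0215 by limma). The summed macrophage markers were also higher there, at 91.2 to 130 RPKM with inhibitor and 55.3 to 62.2 RPKM without, and their part was not tested.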
